A study of Rattus norvegicus with 8 samples.

Results

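The enzymes of eicosanoid synthesis were examined in the abdominal aorta of the rat. They were chosen by name: Ptgs1, Ptgs2, Ptgis, Ptges, Ptgds, Tbxas1, Alox5, Alox5ap, Ltc4s and Pla2g4a, which are 10 of the 18090 genes of the expression table. The samples were polyA RNA of aortas from wild-type (WT) rats, 4 independent replicates in each of the 2 groups. The treated vessels had filter paper with 10% iron chloride (FeCl3) laid around them for 5 min, a standard way to injure an artery and start a thrombus, and the control vessels had 0.9% saline for 5 min. Strain, age and the time from exposure to harvest are not given in the sources used here. Levels are FPKM, fragments scaled for the length of the gene and the total of the library, so they can be compared between genes within a library. Between libraries, FPKM also depends on what else fills the total, and the share of haemoglobin differed widely (below).

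Eicosanoids are short-lived lipid signals made from arachidonic acid, which cytosolic phospholipase A2 (Pla2g4a) releases from membranes. The cyclooxygenases Ptgs1 and Ptgs2 turn it into prostaglandin H2, from which prostacyclin synthase (Ptgis) makes the vasodilator and platelet inhibitor prostacyclin, thromboxane synthase (Tbxas1) makes the vasoconstrictor and platelet activator thromboxane A2, and Ptges and Ptgds make prostaglandins E2 and D2. In the leukotriene arm, 5-lipoxygenase (Alox5) with its activating protein (Alox5ap) makes leukotriene A4, which leukotriene C4 synthase (Ltc4s) joins to glutathione. In arteries, prostacyclin is known as a product of endothelium and smooth muscle, thromboxane of platelets and macrophages, and leukotrienes of leukocytes.

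RefSeq promoter windows, running from 250 bases before to 50 bases after each gene's start, were matched by symbol for 8 of the 10 enzymes (not for Ptgis and Alox5ap). The windows of both cyclooxygenases, of thromboxane synthase and of 5-lipoxygenase are shown, because these genes hold the shared cyclooxygenase step and the thromboxane and leukotriene steps that are set against prostacyclin. Each runs 5′ to 3′ on the gene's own strand in GRCr8, and capitals mark the motifs found. The windows lie at chr3:39981169-39981468 (Ptgs1, plus strand), chr13:64713813-64714112 (Ptgs2, plus strand), chr4:68631635-68631934 (Tbxas1, plus strand) and chr4:151251077-151251376 (Alox5, minus strand).
Ptgs1: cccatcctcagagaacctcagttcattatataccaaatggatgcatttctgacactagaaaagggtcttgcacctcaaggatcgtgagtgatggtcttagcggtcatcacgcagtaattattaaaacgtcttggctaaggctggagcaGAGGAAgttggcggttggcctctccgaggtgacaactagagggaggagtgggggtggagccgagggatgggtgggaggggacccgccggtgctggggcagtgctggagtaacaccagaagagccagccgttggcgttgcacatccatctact
Ptgs2: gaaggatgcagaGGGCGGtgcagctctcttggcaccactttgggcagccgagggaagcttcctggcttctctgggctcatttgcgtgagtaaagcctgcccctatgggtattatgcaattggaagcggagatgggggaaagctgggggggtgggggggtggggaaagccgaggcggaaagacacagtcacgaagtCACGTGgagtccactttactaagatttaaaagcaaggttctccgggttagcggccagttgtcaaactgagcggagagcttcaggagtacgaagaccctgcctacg
Tbxas1: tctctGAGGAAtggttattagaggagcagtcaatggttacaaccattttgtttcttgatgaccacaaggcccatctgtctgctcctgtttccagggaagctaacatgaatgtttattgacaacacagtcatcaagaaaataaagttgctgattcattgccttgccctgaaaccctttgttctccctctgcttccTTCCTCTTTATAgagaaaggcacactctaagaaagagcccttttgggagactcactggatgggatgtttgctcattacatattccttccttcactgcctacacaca
Alox5: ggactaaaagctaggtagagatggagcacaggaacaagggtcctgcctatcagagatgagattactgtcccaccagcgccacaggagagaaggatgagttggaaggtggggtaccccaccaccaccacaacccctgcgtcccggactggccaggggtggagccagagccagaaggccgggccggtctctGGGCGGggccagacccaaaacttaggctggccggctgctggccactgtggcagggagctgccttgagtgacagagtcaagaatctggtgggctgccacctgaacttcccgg

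Both strands were searched for 5 motifs. GAGGAA, the core that ETS-family factors such as the myeloid factor PU.1 can bind, was in 27.6% of the 33469 RefSeq windows and in 3 of the 8 enzymes: at -245 and -56 (minus strand) in Tbxas1, at -102 in Ptgs1, and in Ptges. The second Tbxas1 match runs straight into a TATAAA on the minus strand, so the capitals there form 1 run. GGGCGG, a GC box, was in 33.1% of windows and in 4 enzymes, among them Alox5 at -61 and Ptgs2 at -238. The E-box CACGTG was in 6.42% of windows and, of the 8, in Ptgs2 at -55. TATAAA was in 14.2% of windows and in 2 enzymes, Tbxas1 and Pla2g4a. The CArG box, the element of the serum response factor known from contractile smooth muscle genes, was in 1.64% of windows and in 0 of the 8. These matches are letters in a window of a GRCr8 reference and say nothing of binding. The Ptgs2 and Pla2g4a windows lie 141 kb apart on chromosome 13, on opposite strands.

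Libraries held 24304434 to 30283292 fragments. Smooth muscle markers were high in all 8 (Acta2 at 1304 to 10404 FPKM), as the tissue label states. Saline library 1 stood apart: it had the highest smooth muscle level, its 18 monocyte and macrophage markers summed to 14.3 FPKM against 74.1 to 1002 elsewhere, and its Pecam1, an endothelial marker, was 4.58 FPKM against 54.2 to 123 elsewhere. Saline library 2 carried mesothelial markers (Krt19 at 199 FPKM against at most 1.55 in the other libraries). Saline library 4 stood with the FeCl3 libraries in blood markers: haemoglobin took 16.5% of its fragments, against 16.4 to 34.1% in the FeCl3 libraries and 1.30 to 1.63% in the other saline libraries. Where leaving out 1 of these 3 libraries moved an enzyme's estimate by over 1.5 times, both values are given. Each test below is limma's moderated test of log2(FPKM + 1), FeCl3 minus saline, over the 11921 genes with at least 1 FPKM in at least 4 libraries, two-sided, with Benjamini-Hochberg adjustment; fold changes are on that log2 scale, which understates low genes.

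No enzyme passed that test: 0 of the 6 that entered it had an adjusted p under 0.05, as did 0.0% of all genes. Applied to the recovered fragments with voom, limma called 0 genes too, with 2075 at an unadjusted p under 0.05. At an unadjusted p under 0.05 the counts were 0 of 6 enzymes and 16.6% of all genes, 4.42% higher (527) and 12.2% lower (1454), a split that became 1083 and 519 with median-of-ratios scaling. The estimates were below 0 for Ptgs1, Ptgs2, Ptgis and Pla2g4a and above 0 for Alox5ap and Ltc4s, so 2 of 6 were positive, beside 29.8% of all genes, and 4 of 6 negative, beside 70.2%. Their median was -0.57, and that of all genes -0.25. The groups overlapped for each of the 10 enzymes, while 9.81% of tested genes had groups that did not (1.06% higher and 8.75% lower with FeCl3). Tbxas1, Alox5, Ptges and Ptgds were below the level for testing. With the haemoglobin genes left out of each library's total, the median of all genes moved to 0.01, and the estimates were -0.55 for Ptgs1, -0.29 for Ptgs2, -0.26 for Ptgis, -0.53 for Pla2g4a, 1.73 for Alox5ap and 0.65 for Ltc4s, again with 0 genes called by limma (1453 at an unadjusted p under 0.05). The signs were thus as before, and the negative estimates were smaller in size.

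**Figure D1:**
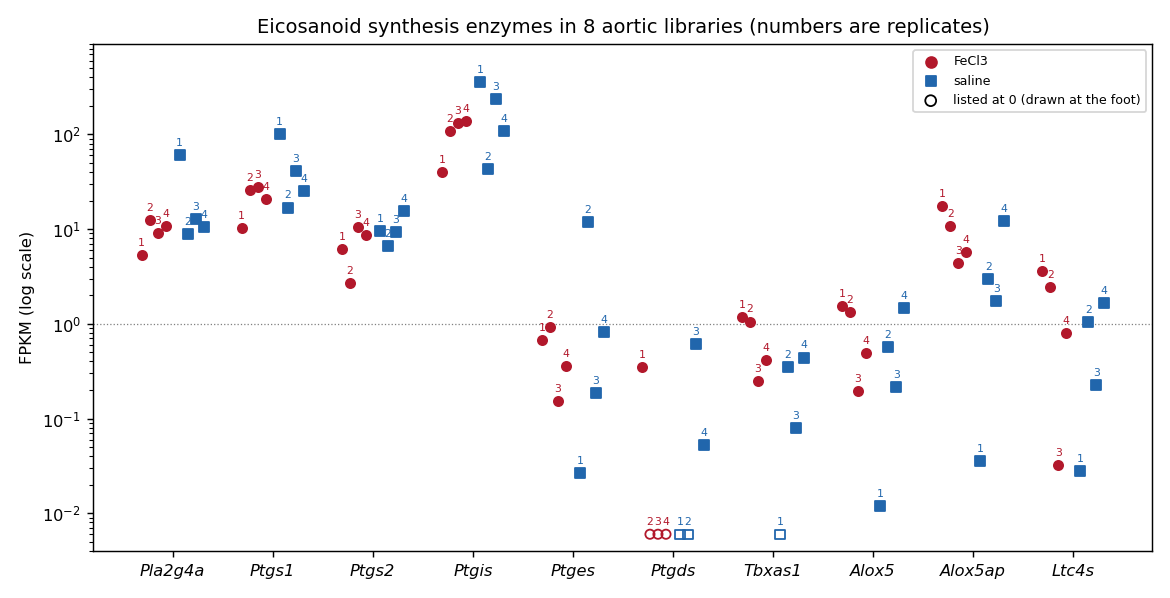
FPKM of the 10 enzymes in each library (log y axis; numbers are replicates; open symbols at the foot are libraries at 0; the dotted line is 1 FPKM). The groups overlap for every enzyme, and saline library 1 is the highest for Ptgis (357 FPKM), Ptgs1 and Pla2g4a and the lowest for Alox5ap, Ltc4s, Alox5 and Tbxas1.

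Prostacyclin synthase (Ptgis) was the most abundant enzyme, with a median of 121 FPKM over the 8 libraries. Ptgs1 followed at 25.5, Pla2g4a at 10.6, Ptgs2 at 9.0, Alox5ap at 5.07, Ltc4s at 0.913, Alox5 at 0.527, Ptges at 0.515, Tbxas1 at 0.380 and Ptgds at 0 FPKM. Ptgis was above Ptgs1 in 8 of 8 libraries, Ptgs1 above Pla2g4a in 8 of 8, and Alox5ap above Ltc4s in 8 of 8. Pla2g4a and Ptgs2 kept their order in only 5 of 8 libraries, and Ptges and Tbxas1 in 4 of 8, so these neighbours were not separated.

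Arachidonate release comes first in the pathway. Cytosolic phospholipase A2, Pla2g4a, was at 5.30, 12.3, 9.19 and 10.8 FPKM in FeCl3 libraries 1 to 4 and at 60.5, 8.90, 12.7 and 10.4 in saline libraries 1 to 4. Saline library 1 was far above the rest, and the other 3 saline libraries lay within the FeCl3 range or just above it. The means were 9.40 ± 3.02 and 23.1 ± 25 FPKM (SD, n = 4 each), and the log2 fold change was -0.81 ± 0.57 (SE, limma adjusted p = 0.470). Without saline library 1 it was -0.21.

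Of the cyclooxygenases, Ptgs1 is the form most cells make at all times and Ptgs2 the form known to be induced by injury and cytokines. Ptgs1 was at 10.2, 25.7, 27.5 and 20.9 FPKM with FeCl3 and at 100, 16.9, 40.8 and 25.3 with saline. FeCl3 library 1 was the lowest, and the 2 highest were saline libraries 1 and 3. Its means were 21.1 ± 7.76 and 45.8 ± 37.6 FPKM (SD, n = 4 each), and the log2 fold change was -0.85 ± 0.54 (SE, limma adjusted p = 0.434), or -0.38 without saline library 1 and -1.21 without saline library 2.

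Ptgs2 was at 6.13, 2.70, 10.4 and 8.66 FPKM with FeCl3 and at 9.62, 6.60, 9.34 and 15.6 with saline. Its lowest value was in FeCl3 library 2 and its highest in saline library 4, the saline library rich in haemoglobin. The means were 6.98 ± 3.36 and 10.3 ± 3.81 FPKM (SD, n = 4 each), and the estimate on the log2 scale was -0.56 ± 0.39 (SE, limma adjusted p = 0.468). It was -0.36 without saline library 4 and -0.23 without FeCl3 library 2. With the haemoglobin level (log2 of the summed FPKM of its genes) as a covariate it was -1.52 (limma adjusted p = 1.00). Scaled to TPM, which moved the median of all genes to -0.90, Ptgs2 was the only enzyme past the threshold (-1.27, limma adjusted p = 0.0451), together with 3288 genes in all. Ptgs1 exceeded Ptgs2 in 8 of 8 libraries, by 1.62 to 10.4 times, with both ends of that range in saline libraries.

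Prostacyclin synthase itself was at 40.4, 109, 133 and 137 FPKM with FeCl3 and at 357, 43.0, 238 and 109 with saline. Saline libraries 1 and 3 were the highest, while saline library 2 was as low as FeCl3 library 1. The means for Ptgis were 105 ± 44.8 and 187 ± 140 FPKM (SD, n = 4 each) and the log2 fold change -0.57 ± 0.67 (SE, limma adjusted p = 0.673). Leaving out saline library 1 gave -0.13, leaving out FeCl3 library 1 gave -0.17 and leaving out saline library 3 gave -0.33. Leaving out saline library 2 gave -1.14, so the size of the estimate rested on which of these libraries was kept.

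Thromboxane synthase, Tbxas1, was at 1.17, 1.06, 0.247 and 0.410 FPKM with FeCl3, from 116, 109, 24 and 41 fragments. With saline it was at 0, 0.350, 0.0796 and 0.441 FPKM, from 0, 32, 9 and 42 fragments. FeCl3 libraries 1 and 2 were the highest, and FeCl3 library 3 was below 2 of the saline libraries. Fitted with no filter, the log2 fold change of Tbxas1 was 0.48 ± 0.21 (SE, limma adjusted p = 0.411), and 1.48 with a pseudocount of 0.1, so its size depended on the pseudocount.

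The leukotriene arm was led by Alox5ap, the membrane protein that presents arachidonate to 5-lipoxygenase. Alox5ap was at 17.4, 10.9, 4.35 and 5.79 FPKM with FeCl3 and at 0.0352, 2.94, 1.74 and 12.1 with saline. All 4 FeCl3 libraries were above saline libraries 1, 2 and 3, and saline library 4 was above every FeCl3 library but the first. The means were 9.62 ± 5.92 and 4.21 ± 5.40 FPKM (SD, n = 4 each), and the log2 fold change was 1.44 ± 0.73 (SE, limma adjusted p = 0.344). It was 2.08 without saline library 4 (limma adjusted p = 0.151, with 160 genes called in all) and 0.86 without saline library 1. With the haemoglobin level as a covariate the sign turned, to -0.44 (limma adjusted p = 1.00), in a fit where 1.01% of all genes had an unadjusted p under 0.05.

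Alox5, the lipoxygenase itself, was at 1.55, 1.34, 0.196 and 0.489 FPKM with FeCl3 and at 0.0119, 0.564, 0.216 and 1.48 with saline. Its highest saline value, again in library 4, was close to its highest FeCl3 value. Fitted with no filter, the estimate for Alox5 on the log2 scale was 0.29 (limma adjusted p = 0.717). It was 0.11 without saline library 1, 0.54 without saline library 4 and -0.37 with the haemoglobin level as a covariate. Ltc4s was at 3.61, 2.42, 0.0326 and 0.791 FPKM with FeCl3 and at 0.0277, 1.04, 0.223 and 1.66 with saline. FeCl3 library 3 was nearly as low in Ltc4s as saline library 1, and the log2 fold change was 0.53 ± 0.51 (SE, limma adjusted p = 0.609). Ltc4s also rested on single libraries: it was 0.20 without FeCl3 library 1, 0.92 without FeCl3 library 3 and 0.31 without saline library 1.

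The remaining enzymes, Ptges and Ptgds, were below 1 FPKM in every library but 1. Ptges, known as the inducible prostaglandin E synthase, was at 0.669, 0.932, 0.155 and 0.361 FPKM with FeCl3 and at 0.0263, 11.8, 0.186 and 0.819 with saline. The one high value, 361 fragments in saline library 2, was in the library with mesothelial markers, and the part of that tissue in it was not tested. The estimate for Ptges was -0.62 with no filter (limma adjusted p = 0.723), -1.01 without saline library 1 and 0.20 without saline library 2, so its sign rested on that library. Ptgds was detected in 3 libraries, at 0.351 FPKM in FeCl3 library 1 and at 0.614 and 0.0521 in saline libraries 3 and 4. Its estimate with no filter was -0.08 (limma adjusted p = 0.841), and -0.15 without saline library 1 and also without saline library 2. Where it was 0, a count of 0 allows up to 0.131 to 0.163 FPKM (3 fragments, counting error only).

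**Figure D2:**
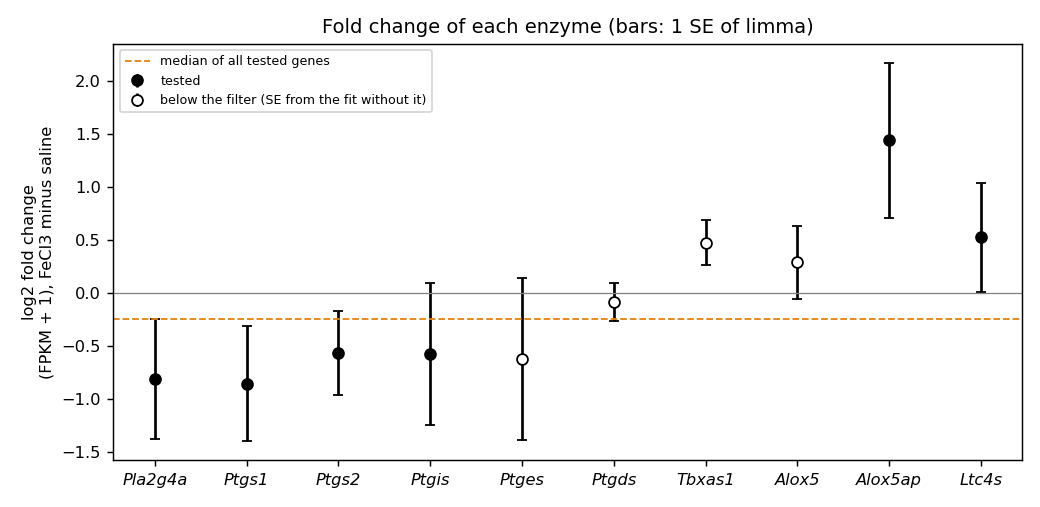
Log2 fold change of log2(FPKM + 1), FeCl3 minus saline, for the enzymes (points; bars are standard errors, open symbols are enzymes below the level for testing, from the fit with no filter). Estimates run from -0.85 for Ptgs1 to 1.44 for Alox5ap, and the median of all tested genes is -0.25.

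The prostacyclin arm was then set against the thromboxane and leukotriene arms within each library. The library total cancels in a plain ratio of FPKM, but not fully on the log2(FPKM + 1) scale, where 1 is added to low levels. Ptgis exceeded Tbxas1 by 34.4, 103, 538 and 335 times in FeCl3 libraries 1 to 4. In saline the ratio was at least 13586 in library 1, where Tbxas1 had 0 fragments (floor of 3 fragments in that library), and 123, 2991 and 248 in libraries 2 to 4. The ratio was thus lowest in FeCl3 libraries 1 and 2 and highest in saline libraries 1 and 3, and the groups overlapped. On the log2(FPKM + 1) scale the difference between Ptgis and Tbxas1 was 5.84 ± 1.15 with FeCl3 and 6.89 ± 1.55 with saline (SD, n = 4 each), a gap of -1.05 for which no test is given because the enzymes were chosen with results of these data known. The gap was -0.52 without saline library 1, also -0.52 without FeCl3 library 1, and -1.67 without saline library 2.

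Against the leukotriene arm, the log2 level of Ptgis minus the mean log2 level of Alox5, Alox5ap and Ltc4s was 4.81 ± 1.51 with FeCl3 and 6.14 ± 2.03 with saline (SD, n = 4 each). The gap of -1.33 ranged from -1.96 without saline library 2 to -0.56 without saline library 1, and the groups overlapped. Ptgis over Alox5ap was 2.31, 10.0, 30.6 and 23.7 with FeCl3. With saline it was 14.6, 137 and 9.02 in libraries 2 to 4, and 10138 in library 1, where Alox5ap had 1 fragment (95% exact Poisson interval 1820 to 400440). Saline libraries 2 and 4 thus lay among the FeCl3 libraries and saline libraries 1 and 3 above them. Ptgis over Ptgs1, 1 of the 2 cyclooxygenases of the shared step, ran from 2.55 to 6.58 over all 8 libraries. The ratio of Ptgis to Ptgs2 was not taken.

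**Figure D3:**
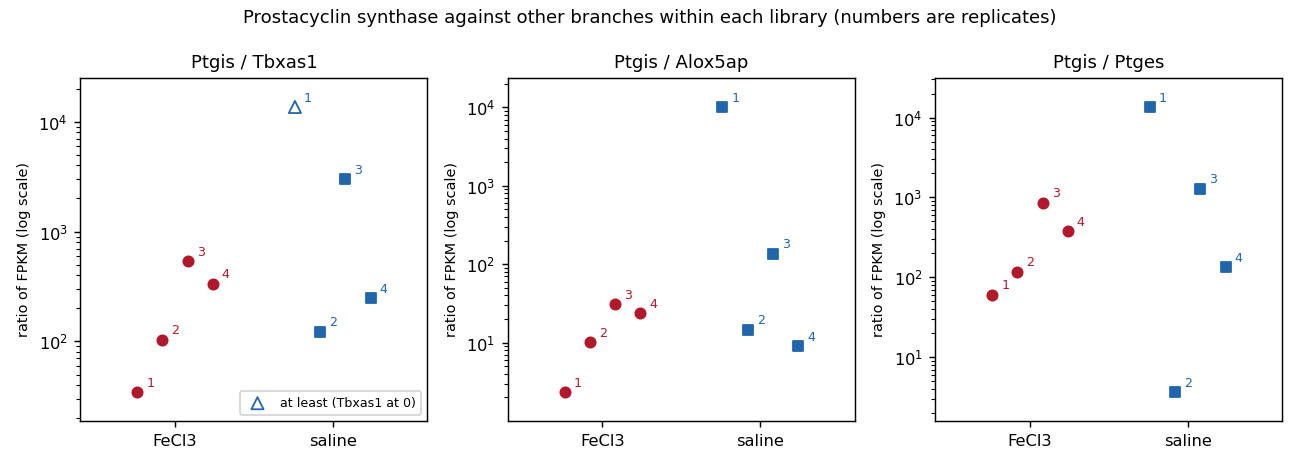
Ratio of Ptgis FPKM to that of Tbxas1, Alox5ap and Ptges in each library (log y axes; numbers are replicates; the open triangle is a lower bound from a floor of 3 fragments). Ptgis over Tbxas1 spans 34.4 to 538 with FeCl3 and from 123 upward with saline, and the groups overlap in all 3 panels.

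The enzymes were next read against cell type markers in the same libraries. The 12 smooth muscle markers summed to 4916, 8969, 13453 and 13163 FPKM with FeCl3 and to 31725, 6847, 19408 and 12680 with saline, which ordered the libraries as Ptgis did, apart from 2 pairs of neighbours. A sum weighs the most abundant genes most. Tagln and Acta2 were at 2009 and 1304 FPKM in FeCl3 library 1 and at 11482 and 10404 in saline library 1, so they made up much of that sum. Per 1000 FPKM of that sum, Ptgis was at 8.21, 12.2, 9.89 and 10.4 FPKM with FeCl3 and at 11.3, 6.28, 12.3 and 8.61 with saline. That is a 1.95-fold range over the 8 libraries, where the level of Ptgis itself ranged 8.85-fold, and 1.07% of tested genes had a range as narrow. Ptgs1 ranged 1.99-fold per smooth muscle sum and 9.81-fold in level (1.25% of genes as narrow), and Pla2g4a 2.92-fold and 11.4-fold (4.97%). Ptgs2 was looser, at 4.15-fold against 5.80-fold (12.5%). Per smooth muscle sum, Ptgis had means of 10.2 ± 1.63 with FeCl3 and 9.60 ± 2.70 with saline (SD, n = 4 each), a difference smaller than the spread within either group. The smooth muscle sums themselves overlapped between the groups. In bulk RNA, fewer smooth muscle cells, less RNA per cell and a larger share of RNA from other cells cannot be told apart. The smooth muscle list had 0 of 12 positive fold changes and a median of -1.0, with 0 past the adjusted threshold in limma. Other tissue lists went both ways, with 0 past it too. Positive fold changes were found for 9 of 11 fibroblast markers (median 1.26) and 8 of 8 white adipocyte markers (median 2.04). The white adipocyte sum was 492 to 13083 FPKM with FeCl3 and 2.26 to 10690 with saline. Of the endothelial markers 8 of 13 were positive (median 0.29). Schwann cell markers had 1 of 8 positive (median -1.27), and the 2 mesothelial markers tested had 0 (median -1.38).

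Alox5ap was read against leukocyte markers. The 18 monocyte and macrophage markers summed to 1002, 928, 298 and 443 FPKM with FeCl3 and to 14.3, 143, 74.1 and 680 with saline, and 17 of the 17 tested had positive fold changes (median 1.46, 0 past the adjusted threshold in limma). Lyz2 alone was at 564 FPKM in FeCl3 library 1 and at 3.34 in saline library 1, so it weighed heavily in that sum in the first of these. Per 1000 FPKM of that sum, Alox5ap was at 17.4, 11.7, 14.6 and 13.1 FPKM with FeCl3 and at 20.5, 23.5 and 17.8 in saline libraries 2 to 4. Among these 7 libraries the range was 2.01-fold, and 0.109% of tested genes had one as narrow in the same 7. Saline library 1, with 1 fragment of Alox5ap, was at 2.46, with an exact Poisson interval of 0.0622 to 13.7 that reaches into the range of the others. With it, the range was 9.56-fold. The FeCl3 values lay below those of saline libraries 2 to 4, unlike the level of Alox5ap itself, and above that of saline library 1. Over all 8 libraries the groups overlapped (means 14.2 ± 2.44 with FeCl3 and 16.1 ± 9.37 with saline, SD, n = 4 each). Per 1000 FPKM of the 10 neutrophil markers, Alox5ap ran from 68.3 to 252 FPKM over all 8 libraries, a 3.69-fold range that 0.143% of tested genes had as narrow. Saline library 1, at 80.5, rested there on the same 1 fragment, over a neutrophil sum of 0.438 FPKM. No interval was taken for it, so its place inside that range, and with it the share, is uncertain. The rest of the leukotriene arm was less even. Per 1000 FPKM of the macrophage sum, Alox5 ran from 0.657 to 3.94 FPKM, a 5.99-fold range over the same 7 libraries and over all 8. Ltc4s ran from 0.109 to 7.23 FPKM, a 66.2-fold range, with its lowest value in FeCl3 library 3, from 1 fragment. Tbxas1 per macrophage sum was at 1.17, 1.14, 0.83 and 0.93 with FeCl3 and at 2.44, 1.07 and 0.648 in saline libraries 2 to 4, and a count of 0 in saline library 1 allows up to 1.83. Platelet markers, which include Pf4 at 922 to 2429 FPKM with FeCl3 and 17.8 to 1579 with saline, were also higher in all FeCl3 libraries than in saline libraries 1 to 3. Tbxas1 per platelet sum ran from 0.149 to 2.93 over the 7 libraries that had it, wider than per macrophage sum. The parts of these cell types in the enzyme levels were not tested.

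**Figure D4:**
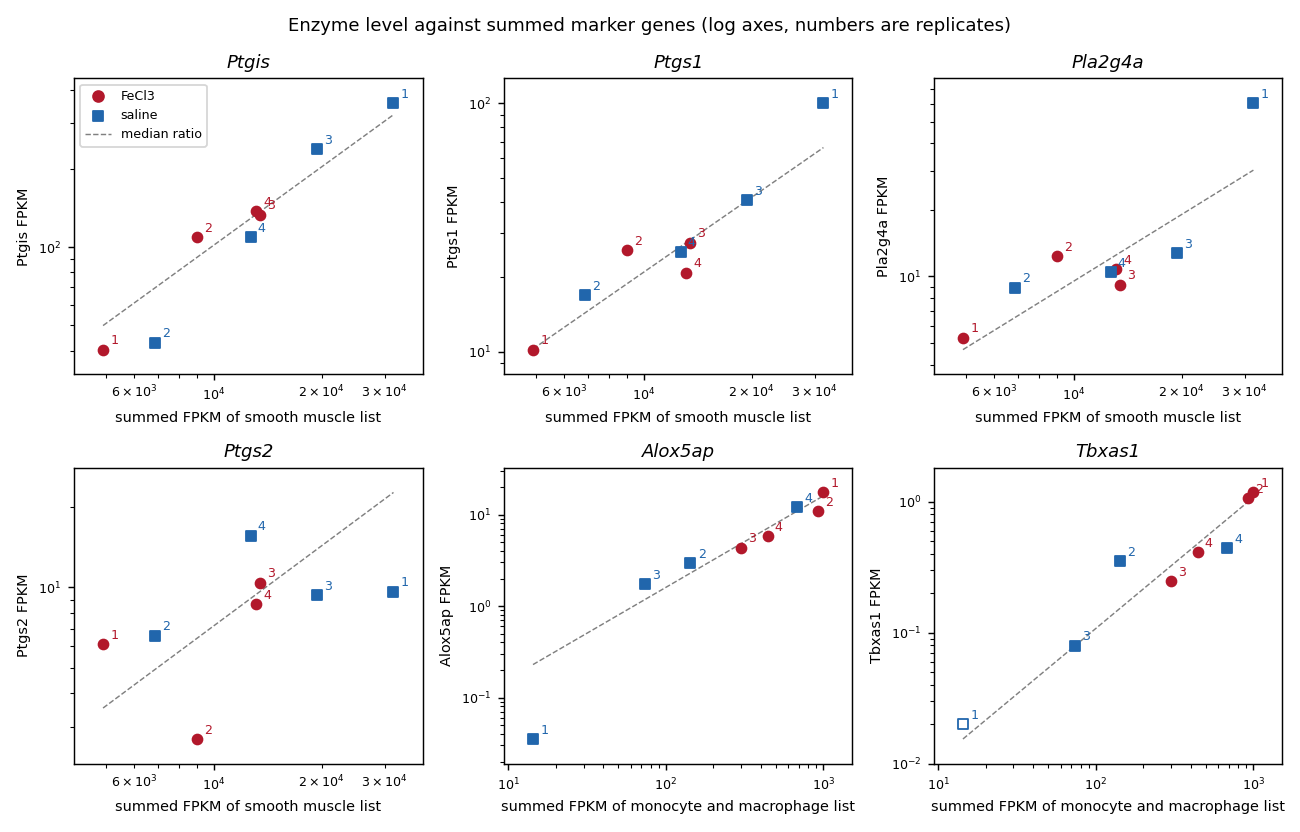
Level of 6 enzymes against the summed FPKM of smooth muscle or of monocyte and macrophage markers in the same library (log axes; numbers are replicates; the dashed line is the median ratio; the open symbol is a library at 0, drawn at a set height). Ptgis and Ptgs1 stay within a 1.95-fold and a 1.99-fold band around smooth muscle, Ptgs2 within 4.15-fold.

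The genes whose levels ran most like each enzyme were listed by Pearson's r of log2(FPKM + 1) over the 8 libraries, as a description with no test, since all genes of a library share its total and its tissue. For Ptgis they were Lhfpl6 (0.996), Plod2, a collagen lysyl hydroxylase (0.993), and Foxc2, a forkhead transcription factor (0.992), with Acta2 at 0.977. For Tbxas1 they were Sucnr1, the succinate receptor (0.978), RGD1559482 (0.974) and Arl11 (0.970). For Ptgs2 they were Zfp287 (0.953), Prc1 (0.918) and Zfp157 (0.910), none of them a marker on the lists used. Between enzymes, r was 0.919 for Ptgis and Ptgs1, 0.329 for Ptgis and Ptgs2, and -0.687 for Ptgis and Alox5ap.

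Around these 10 enzymes, 6 other lists of the pathway held 78 genes, of which 71 were in the table and 45 were tested. Of these, 24 had positive and 21 negative fold changes (median 0.08), 0 passed the adjusted threshold in limma, and 4 had an unadjusted p under 0.05, all higher with FeCl3: Alox15, Alox12, Pla2g2a and Pla2g7. Over all tested genes, 29.8% were positive, 16.6% had such a p in either direction, and 4.42% had one with the higher level in FeCl3. Alox12 and Pla2g7 were picked for mention after their values were seen. Pla2g2a, a secreted phospholipase A2, was at 275, 439, 191 and 64.3 FPKM with FeCl3 and at 5.46, 13.9, 19.9 and 133 with saline. Only saline library 4 reached the FeCl3 range, and the log2 fold change was 3.12 ± 0.92 (SE, limma adjusted p = 0.245). The lipoxygenase Alox15, known from reticulocytes and macrophages, was at 324, 109, 727 and 337 FPKM with FeCl3 and at 13.1, 5.46, 9.85 and 469 with saline. Its fold change was 3.55 ± 1.27 (SE, limma adjusted p = 0.258), and it too was high in the haemoglobin-rich saline library 4.

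Alox12, the platelet-type lipoxygenase, was at 9.44, 7.79, 6.76 and 5.36 FPKM with FeCl3 and at 0.112, 3.29, 0.269 and 5.67 with saline, which differed by 1.70 ± 0.57 on the log2 scale (SE, limma adjusted p = 0.256). Its only saline value inside the FeCl3 range was in library 4. Pla2g7, which breaks down platelet-activating factor, was at 2.96 to 7.47 FPKM with FeCl3 and at 0 to 5.30 with saline (log2 fold change 1.26 ± 0.54, SE, limma adjusted p = 0.291). Lta4h, the hydrolase that makes leukotriene B4 from the product of Alox5, was even over all 8 libraries, at 14.5 to 20.3 FPKM, and differed by -0.03 ± 0.19 on the log2 scale (SE, limma adjusted p = 0.941). Ptges3, a widely expressed prostaglandin E synthase and co-chaperone, was at 92.1 to 148 FPKM with FeCl3 and 114 to 253 with saline (-0.43 ± 0.29, limma adjusted p = 0.467). Of the receptors, the thromboxane receptor Tbxa2r was at 1.44 to 4.65 FPKM with FeCl3 and 1.63 to 5.34 with saline, and the prostaglandin E2 receptor Ptger3 at 6.55 to 15.4 and 6.83 to 24.6.

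**Figure D5:**
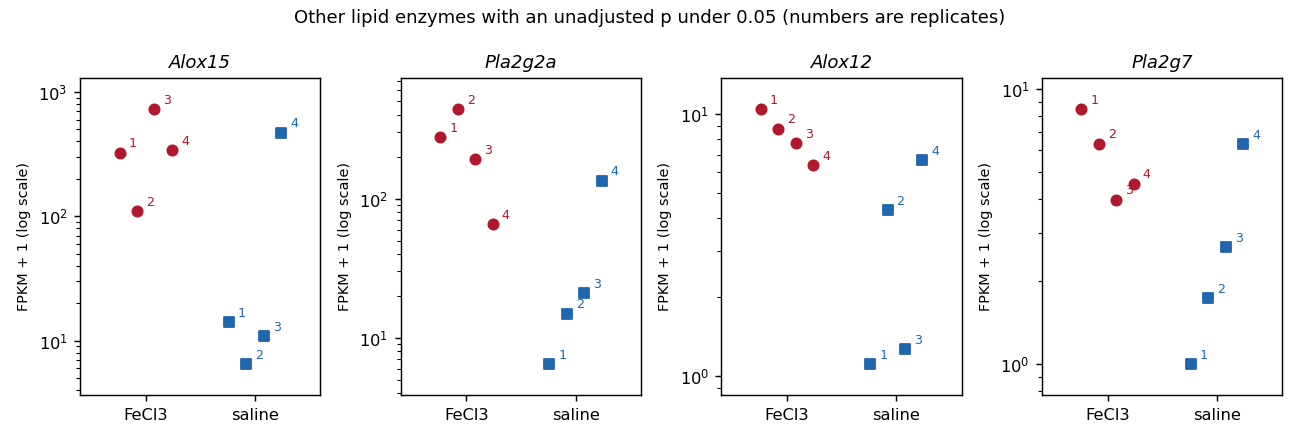
FPKM + 1 of 4 other lipid enzymes in each library (log y axes; numbers are replicates). Alox15, Pla2g2a, Alox12 and Pla2g7 are high in the 4 FeCl3 libraries and in saline library 4, where Alox15 is at 469 FPKM.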

How the data were processed

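The deposited table gives gene levels in FPKM for 8 libraries of polyA RNA. Per the submitters' processing notes, the authors used fastp, HISAT2, HTSeq and the build mRatBN7.2; their versions, roles and the annotation are not given in the sources used here. FPKM values in the deposited file were whole multiples of 1 fragment, from which the fragments per gene and the library totals (24304434 to 30283292) were recovered; intervals and floors from them cover counting error only. Haemoglobin took 1.30 to 34.1% of fragments, which lowers the FPKM of all other genes in a library.

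Groups were taken from the treatment label, and replicates were numbered in accession order, which pairs nothing. The replicates are called independent in the study's description. limma 3.58.1 in R 4.3.3 (trend, two-sided) was fitted to log2(FPKM + 1) for the 11921 genes with at least 1 FPKM in at least 4 of 8 libraries, and p-values were adjusted over all of them (Benjamini-Hochberg, threshold 0.05). The procedure was run on simulated data with noise drawn separately for each gene. That simulation had no shift shared by all genes of a library, such as haemoglobin gives here, so its outcome does not carry over to these data. Ratios were taken within a library, and marker lists were summed. The enzymes and lists were chosen with earlier results of these data known. All 10 enzymes are named; of each other pathway list the rule named the 3 genes with the highest mean FPKM, of which the report gives some, and of the marker lists up to 2. Likeness was listed for Ptgis, Tbxas1 and Ptgs2 by rule, and for Alox5ap and Ltc4s after seeing values. Promoter windows and motif shares came from RefSeq (GRCr8), a build other than the authors'. Alternatives covered the pseudocount, filter, scaling, test and left-out libraries.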

Additional observations from a re-analysis of the deposited data

Results flagged for a closer look

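A gap test was run on the 20 groups of 4 libraries formed by 10 enzymes in FeCl3 and in saline, and 4 of them held a library far from the other 3. Chance gives about 1 such group in 20 for normally distributed values. The rate for FPKM, which can be skewed, was not tested, and each library found was the highest of its group. The rate of 1 in 20 also does not apply to the 2 Ptgds groups among the 4, where the other libraries are at or near 0. Ptges was at 11.8 FPKM in saline library 2, where mesothelial markers were also high (summed 504 FPKM against 5.04 to 6.34 in the other 7 libraries). Pla2g4a was at 60.5 FPKM in saline library 1, the library with the highest smooth muscle sum. Ptgds was at 0.351 FPKM in FeCl3 library 1, from 7 fragments, and at 0.614 FPKM in saline library 3, from 14 fragments, with the other libraries at 0 or 1 fragment.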

How the results depend on the processing

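The count of all genes past the adjusted threshold was 0 as fitted and 3288 with TPM, and ranged from 0 to 160 when 1 library at a time was left out, with 160 reached without saline replicate 4. It was 51 with saline replicates 1 and 4 left out together, an alternative added after seeing the data. Alox5ap changed sign with the haemoglobin level (log2 of the summed FPKM) as a covariate, to -0.44 (limma adjusted p = 1.00; its adjusted p over the alternatives ran from 0.151 to 1.00), and the cause was not tested. Over 179 enzyme values under alternatives, 174 kept their direction and side of the threshold or, for the 4 enzymes not tested, stayed within the spread between replicates; 1 passed the threshold (Ptgs2 with TPM), and 3 of Tbxas1 and Alox5 moved by more than that spread. The sign differed in 6 of the 179: Alox5ap and Alox5 (-0.37) with the haemoglobin covariate, Ptges without saline replicate 2 (0.20) and with that covariate (0.07), and Ptgds without saline replicate 3 (0.08) and with that covariate (0.03). The gap of Ptgis to Tbxas1 was -2.05 with a pseudocount of 0.1, -1.74 with TPM and -0.88 with median-of-ratios scaling. It ranged from -1.67 to -0.52 with 1 library left out. The gap to the leukotriene arm was -1.94, -1.84 and -1.22 under the same alternatives, and ranged from -1.96 to -0.56 with 1 library left out. No paired analysis was possible because the replicate numbers follow accession order and pair no samples. With 4 libraries a group the spread within groups sets the precision: the 6 tested enzymes ranged at least 5.80-fold over the libraries, and Tbxas1, Alox5, Ptges and Ptgds rest on few fragments.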

Other observations

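Alox5 and Tbxas1, both listed below 2 FPKM, were also set against each other. Chosen after its values were seen, the ratio of Alox5 to Tbxas1 was 1.32, 1.27, 0.792 and 1.19 in FeCl3 libraries 1 to 4 and 1.61, 2.72 and 3.36 in saline libraries 2 to 4, so these 7 libraries did not overlap between groups. Saline library 1 had 1 fragment of Alox5 and 0 of Tbxas1 and gives no ratio. All other ratios taken between enzymes overlapped between the groups. How many gene pairs would separate in this way was not determined, so the separation is given as a description only. Counting error alone is wide: the 95% exact interval was 0.981 to 2.67 in saline library 2 and 1.01 to 1.73 in FeCl3 library 1, and only that of saline library 4 (2.33 to 4.94) lay clear of all 4 FeCl3 intervals.

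Also listed after seeing values, the genes most like Alox5ap over the 8 libraries were Csf1r (r = 0.996), the receptor for the macrophage growth factor, Fcgr1a (0.987) and Mpeg1 (0.985). Those most like Ltc4s were Gsn (0.991), Lyve1 (0.989) and Folr2 (0.983). Gsn is on the fibroblast marker list used here, while Lyve1 and Folr2 are known from resident macrophages of the vessel wall. Ltc4s did not keep a narrow range per macrophage sum (66.2-fold) or per fibroblast sum (70.1-fold). Ltc4s and Alox5ap had r = 0.846 with each other.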
